A study of Rattus norvegicus with 9 samples.

Results

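The genes described are the translation initiation and elongation factors of the rat, as measured in cultured retinal ganglion cells that carried either of 2 forms of Set-β. They were chosen by name: every transcript cluster of the array that was annotated with a single gene symbol was kept when that symbol began with Eif and a digit of 1 to 6, or with Eef and a digit of 1 or 2, followed only by letters and digits. The rule found 58 clusters of 56 genes, among 18511 clusters with a single symbol and 36685 clusters in all, and it used no measured value. Each gene was read from its cluster of highest mean. A further 3 clusters carried several symbols of this family and were not used. Eif2ak2, Eif3e, Eif5 and Eif6 were not analysed here.

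Retinal ganglion cells are the projection neurons of the retina, and their axons form the optic nerve. All 9 samples came from Sprague Dawley rats at postnatal day 4, were captured by immunopanning, and received a test construct by electroporation together with the green fluorescent plasmid pMAX-GFP. The groups were myr-Set-β (3 arrays), wild-type Set-β (3 arrays) and mCherry, a red fluorescent protein that served as the control (3 arrays). GFP-positive cells were sorted on the next day, kept on laminin, and lysed 3 days after transfection. Set-β is a histone-binding protein that also inhibits protein phosphatase 2A. The labels do not spell out the prefix myr, and they give neither the promoter of the constructs nor how much Set-β each culture made. They call the replicates biological without saying whether each was a separate litter or culture, so a p-value speaks only of how far these arrays scatter, and that scatter may be technical.

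Translation initiation factors bring the initiator tRNA, the small ribosomal subunit and the capped messenger RNA together and release the joined ribosome at a start codon, after which elongation factors deliver aminoacyl-tRNAs and move the ribosome along. Cells tune this machinery at a few points: kinases that phosphorylate the alpha subunit of eIF2, proteins that hold the cap-binding factor eIF4E, and a kinase that stops eEF2. The growth pathway through mTOR acts on several of them, and in rodent ganglion cells its activity is tied to the ability to regrow an axon. Many messages for elongation factors and some for initiation factors begin with a run of pyrimidines, through which mTOR controls their own translation.

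Values are log2 intensities. Each array had been scaled by the authors to a median intensity of 100, which is 6.64 on the log2 scale, so a value says how bright a gene was relative to the middle of its own array. Values of a group are listed in the order of replicates 1, 2 and 3. A difference is a group mean minus another group mean, given with its standard error (SE) from limma, a linear model with a moderated variance fitted across all clusters, and each group has 3 arrays. The SE rests on 1 spread pooled over all 3 groups. That of a wild-type Set-β difference from mCherry, and its p-value, therefore also hold the scatter of the myr-Set-β arrays. Of the 56 genes, 53 had a mean at or above 6.65, the median of all cluster means, and were tested together with all such clusters, 18343 in number. The 3 below it were Eif2ak4, Eif4e1b and Eif4e3. A value given as without replicate 1 leaves out that replicate of myr-Set-β. Probes of different genes bind differently, so levels are compared across arrays and never between genes.

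No translation factor passed the adjusted threshold of 0.05 (Benjamini-Hochberg over 18343 clusters) in any of the 3 comparisons, and neither did any other cluster, so that 0% of clusters were called in each. The smallest adjusted p of a member from limma was 0.447 for myr-Set-β against mCherry and also 0.447 for wild-type Set-β against mCherry. For myr-Set-β against wild-type Set-β it was 1. A fit with array weights, whose estimation stopped before convergence, called 34 of 53 members for myr-Set-β against mCherry, where it called 32.2% of all clusters, and 1 for myr-Set-β against wild-type Set-β, where it called 6.92%. The values that follow describe sizes and order on these arrays, and none of them is a call.

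The members nevertheless lay mostly on one side of zero. Under myr-Set-β, 52 of 56 had a lower mean than under mCherry, with a median difference of -0.58, and under wild-type Set-β 54 of 56 had a lower mean, with a median difference of -0.49. Over all tested clusters the medians were -0.16 for myr-Set-β, with 63.9% lower, and -0.18 for wild-type Set-β, with 65.5% lower. Both comparisons use the same 3 mCherry arrays, so their directions are not independent of each other. Most members sit in the upper part of the intensity range, where clusters in general were lower too. Above the 75th percentile of mean level, the median over all clusters was -0.36 under either form. There 6774 of 9172 clusters were lower under myr-Set-β and 6765 under wild-type Set-β. The 43 members in that range had medians of -0.61 under myr-Set-β, with 42 lower, and -0.53 under wild-type Set-β, with 43 lower.

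**Figure D1:**
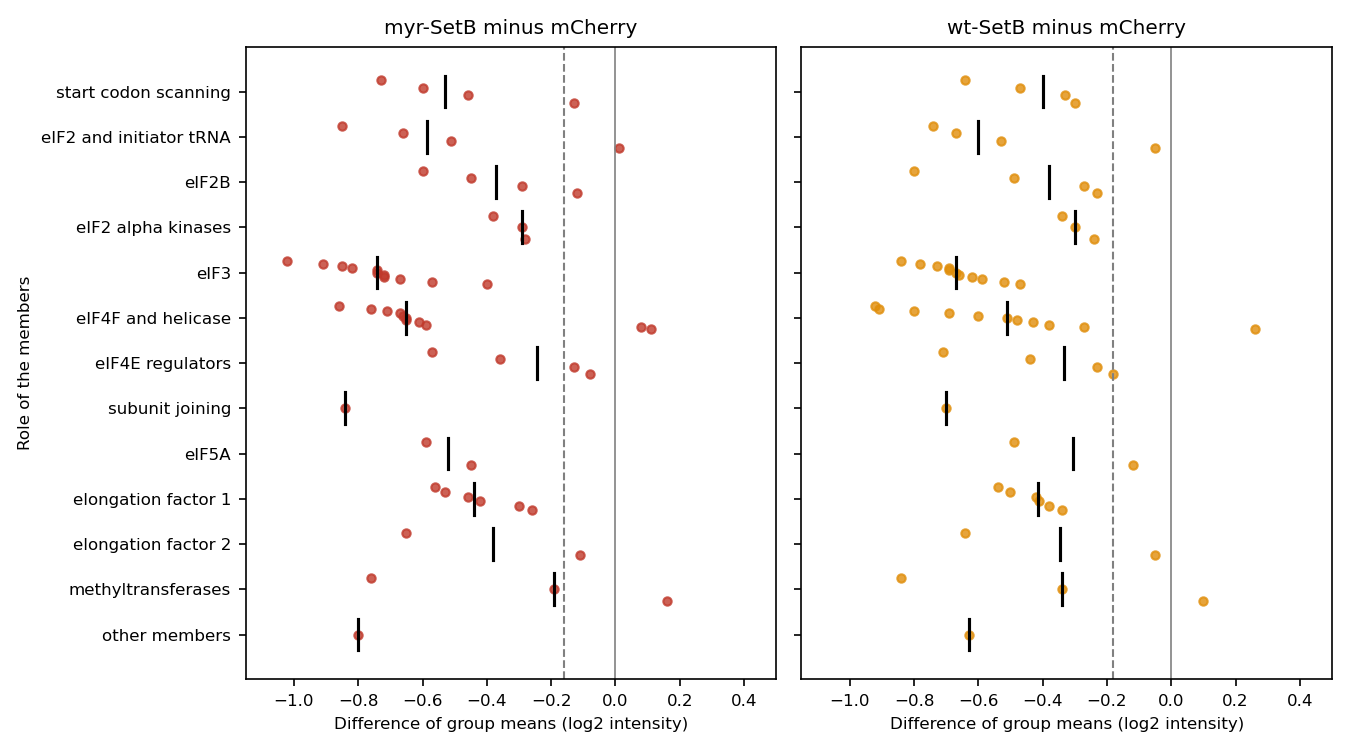
Differences of the 56 translation factors from mCherry on the log2 scale, by role, for myr-Set-β (left) and wild-type Set-β (right). Points are genes, short black lines are role medians and dashed lines are medians of all tested clusters; the 11 eIF3 subunits all lie below zero in both panels, with medians of -0.74 under myr-Set-β and -0.67 under wild-type Set-β.

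The 2 comparisons differed in how the arrays separated. A gene is called apart when all 3 arrays of a group lie on one side of all 3 arrays of the other. For myr-Set-β, 3 of 53 tested members (5.66%) were apart and lower, Eif3k, Eif4ebp2 and Eif5a2, against 6.85% of all tested clusters. Above the 75th percentile the share over all clusters was 7.23%. For wild-type Set-β, 32 of 53 (60.4%) were apart and lower, against 26.4% of all tested clusters, and among the 43 bright members 28 were (65.1%), against 35.3% of all clusters in that range. At an unadjusted p under 0.05, 4 of 53 tested members were lower under myr-Set-β, a share close to the 6.92% of all clusters. None was higher, against 2.87%. Under wild-type Set-β 6 of 53 were lower, against 7.13% of all clusters, and none was higher, against 3.04%.

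These counts differed with the arrays included. The median level of the 56 members was 7.70, 8.65 and 9.19 on the myr-Set-β arrays, 8.50, 8.56 and 8.42 on the wild-type Set-β arrays, and 9.15, 8.90 and 9.27 on the mCherry arrays. The wild-type Set-β arrays lay close together and below all mCherry arrays, whereas the myr-Set-β arrays spanned a wider range than the other 6 arrays together. Replicate 1 of myr-Set-β was the lowest of the 9 arrays for 43 of 56 members, and replicate 3 was the highest for 10 and the lowest for 1. Replicate 3 of mCherry was the highest array for 26 members. Without myr-Set-β replicate 1, the median difference from mCherry was -0.22, with 50 of 56 members lower, against 11327 of 18343 tested clusters. Above the 75th percentile of mean level, the median over all clusters was then -0.14, with 6320 of 9172 lower. The 43 members in that range had a median of -0.23, with 40 lower. Also without replicate 1, 3 of 53 members were apart and lower, against 8.66% of clusters. Leaving out replicate 3 in place of replicate 1 gave a median of -0.90 with 53 members lower and 47 of 53 apart, against 37.5% of clusters. Without mCherry replicate 1, 6 of 53 members were apart and lower under myr-Set-β, against 9.24% of clusters, and without mCherry replicate 2 there were 14, against 23.7%.

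**Figure D2:**
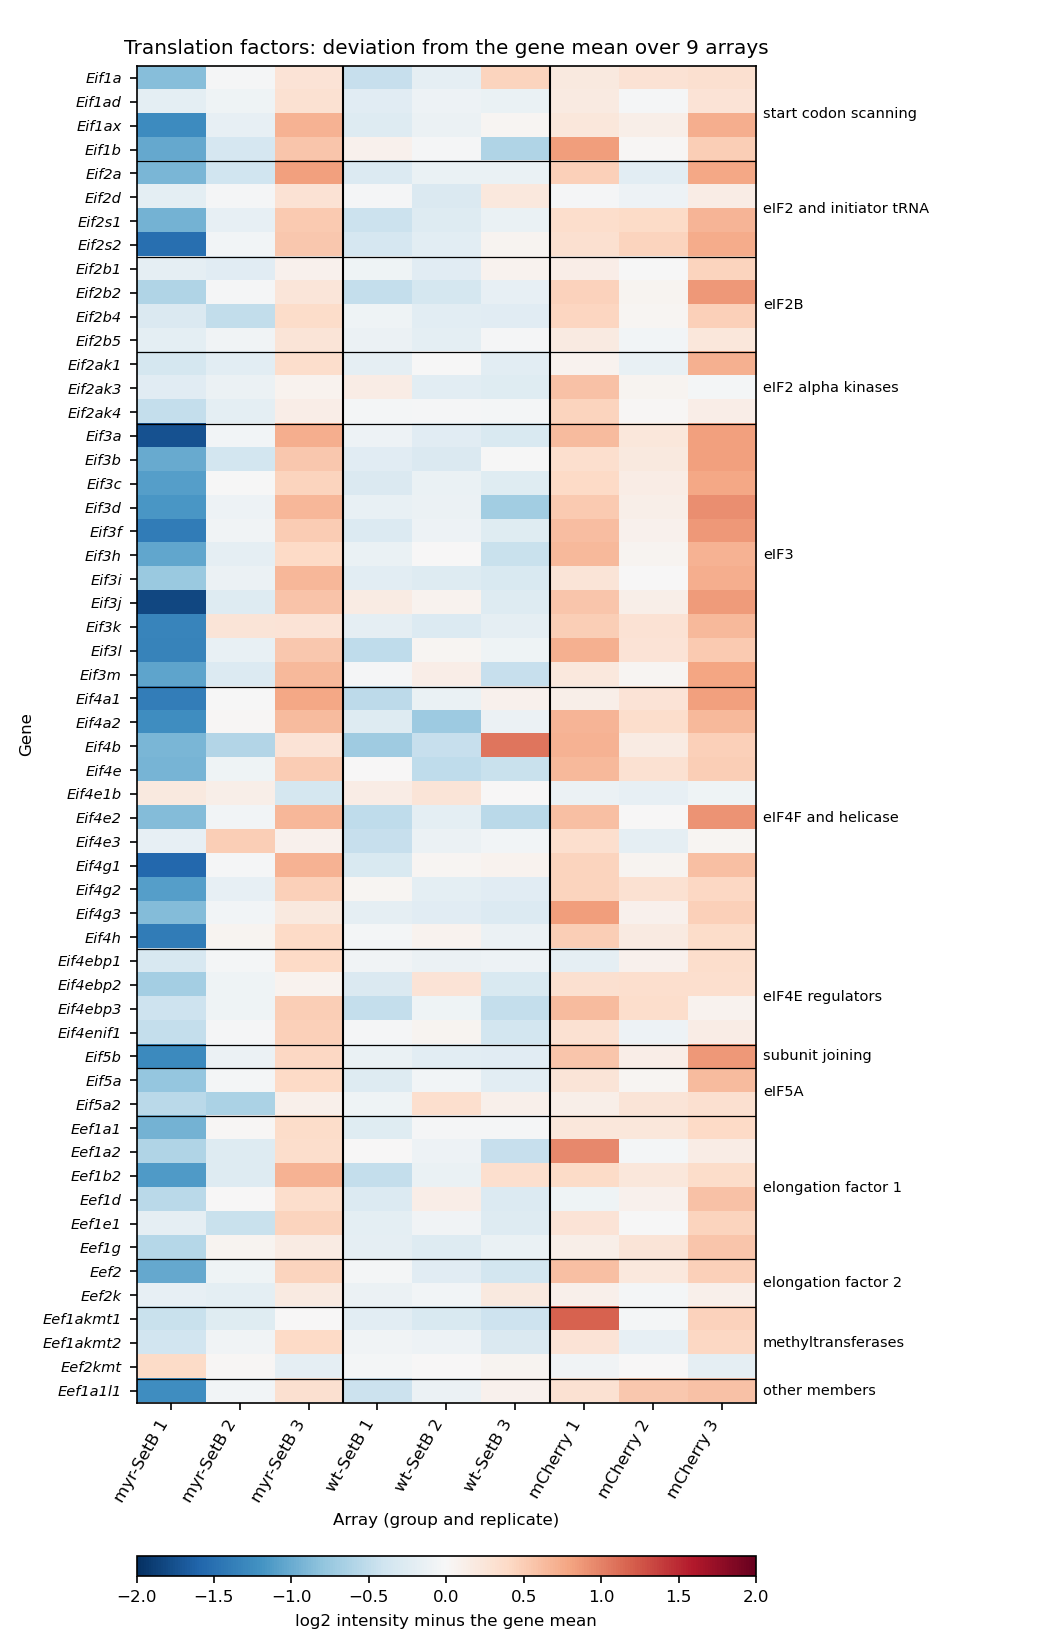
Deviation of each translation factor (rows, by role) from its mean over the 9 arrays (columns, by group), in log2 units. Replicate 1 of myr-Set-β is the lowest array for 43 of 56 genes, while replicate 3 of the same group lies above the 9-array mean for most.

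The spread of intensities within an array moved with the members. The distance between the 10th and 90th percentile of log2 intensity was 3.82, 4.18 and 4.46 on the myr-Set-β arrays, 4.12, 4.21 and 4.14 on the wild-type Set-β arrays, and 4.54, 4.29 and 4.53 on the mCherry arrays. The array with the narrowest spread was thus the one on which members were lowest. Quantile normalization, which gives every array the same distribution, left median differences of -0.34 for myr-Set-β, with 48 of 56 members lower, and of -0.24 for wild-type Set-β, with 49 lower. After this normalization, 9716 of all 18343 tested clusters were lower under myr-Set-β and 9815 under wild-type Set-β. Above the 75th percentile of mean level, the median over all clusters was then -0.12 for myr-Set-β, with 5511 of 9172 lower. For wild-type Set-β it was -0.08, with 5336 lower. The 43 members in that range had medians of -0.36 for myr-Set-β, with 39 lower, and -0.23 for wild-type Set-β, with 38 lower. The members' median deviation on replicate 1 of myr-Set-β was -0.51 after that step and -0.87 before it. After it, 3 of 53 were apart and lower under myr-Set-β, against 6.27% of clusters, and 22 of 53 under wild-type Set-β, against 11.7%.

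**Figure D3:**
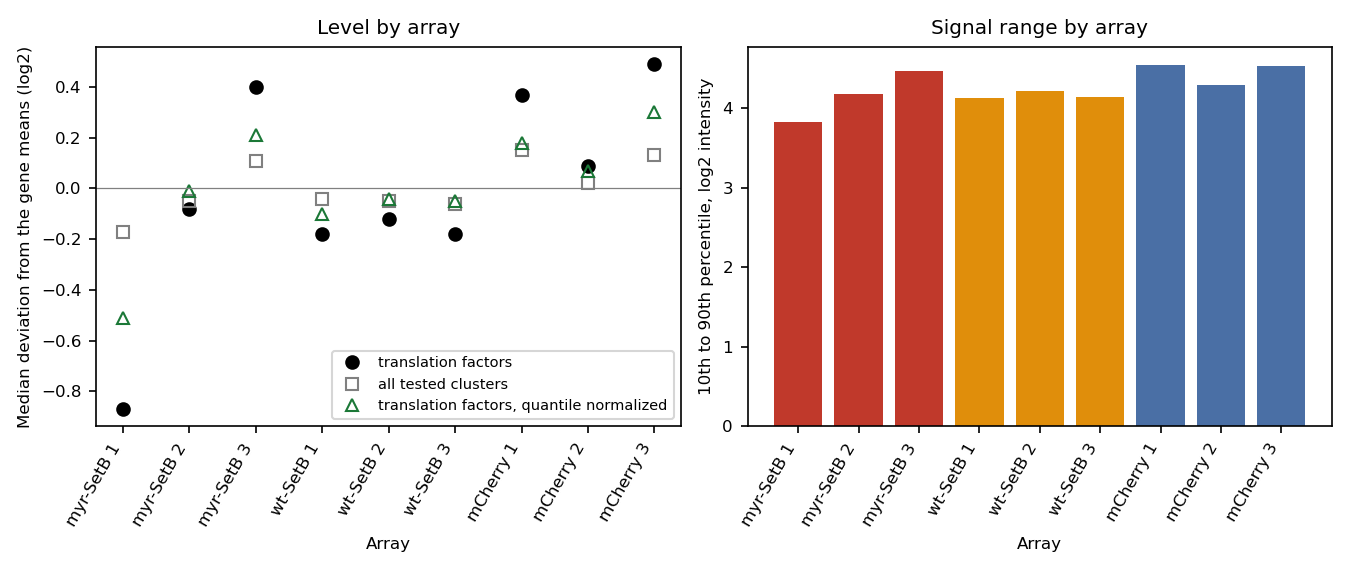
Left, median deviation from the 9-array means in log2 units, by array, for the 56 translation factors, for all tested clusters and for the factors after quantile normalization; right, bars of the distance between the 10th and 90th percentile of log2 intensity. The members range from -0.87 on myr-Set-β replicate 1 to 0.49 on mCherry replicate 3, and all tested clusters from -0.17 to 0.15.

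The labelled cell type was present by its markers. All 14 ganglion cell markers lay above the array median in the mean of the mCherry arrays, and their summed intensity was 7344 to 12527 on the myr-Set-β arrays, 6693 to 11930 on the wild-type Set-β arrays and 10560 to 18156 on the mCherry arrays. Of microglial markers 5 of 8 lay above the median there, with sums of 1165 to 1464 on the myr-Set-β arrays, 1103 to 1425 on the wild-type Set-β arrays and 977 to 1282 on the mCherry arrays. Of the other lists, 1 of 6 measured glial, 4 of 8 amacrine and horizontal and 2 of 6 photoreceptor and bipolar markers did. The glial marker above the median was Vim, at 8.39, 7.84 and 8.60 on replicate 1 of myr-Set-β, wild-type Set-β and mCherry, and between 11.15 and 12.13 on the other 6 arrays. The part of these shifts in the members' values was not tested. In RNA from whole cultures, fewer cells of a type and less RNA per cell cannot be told apart. Correlations between arrays were 0.844 to 0.959.

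Before the values, 5 promoters are shown as examples of features counted further on: the E-box CACGTG, which Myc and related factors bind, or a run of pyrimidines at the start of transcription. They are RefSeq sequences of rat build GRCr8, on the strand of the gene, from 60 bases before to 20 bases after the start used in the RefSeq table. Capitals mark a complete CACGTG or the pyrimidine run. Eef1a1 (chr8:88225050-88225129, minus strand) and Eef1b2 (chr9:72074031-72074110, plus strand) show the run. Eif1b (chr8:129081098-129081177, plus strand) and Eif3b (chr12:19334749-19334828, minus strand) show the E-box, and Eif3f (chr1:172369002-172369081, plus strand) shows both.
Eef1a1: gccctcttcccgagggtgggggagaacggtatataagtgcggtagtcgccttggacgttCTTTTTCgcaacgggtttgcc
Eef1b2: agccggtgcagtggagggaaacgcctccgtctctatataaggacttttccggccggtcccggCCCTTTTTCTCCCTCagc
Eif1b: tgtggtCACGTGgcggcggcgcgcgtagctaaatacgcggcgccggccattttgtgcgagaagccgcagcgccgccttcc
Eif3b: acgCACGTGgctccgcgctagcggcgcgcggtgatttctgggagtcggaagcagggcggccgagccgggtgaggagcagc
Eif3f: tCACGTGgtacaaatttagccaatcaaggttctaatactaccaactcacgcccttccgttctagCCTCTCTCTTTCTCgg

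Promoters of 300 bases, 250 before and 50 after the start, were matched for 51 of 56 members. Eef1d, Eif3h, Eif4b, Eif4e3 and Eif4ebp1 had no match. CACGTG, searched on both strands, stood in 11 of the 51 (21.6%) and in 6.7% of all 27457 promoters. The CCGGAAG motif of ETS factors stood in 18 (35.3%) against 9.2%, and GGGCGG, the GC box, in 36 (70.6%) against 34.9%. CCAAT stood in 15 (29.4%) against 37.7%, TATAAA in 3 (5.9%) against 14.3%, and TGATGNAA, a form of the amino acid response element, in 1 (2.0%) against 3.8%. The member promoters were also richer in G and C, with a median of 61.0% against 52.3%. None of these motifs contains another, but they can share bases where they meet. A C followed by 4 pyrimidines, beginning within 5 bases of the start on the gene's strand, stood in 15 (29.4%) against 17.0%. The start used in the table was the annotated gene start for 26 of the 51, so a run at another start would be missed. Matches are letters in a window and say nothing of binding.

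The members with CACGTG had median differences from mCherry of -0.66 under myr-Set-β and -0.62 under wild-type Set-β, and the 40 members without it had -0.55 under myr-Set-β and -0.50 under wild-type Set-β. Those with a pyrimidine run at the start had -0.51 under myr-Set-β and -0.41 under wild-type Set-β, and the 36 without had -0.60 under each. The 18 members with CCGGAAG had -0.57 under myr-Set-β and -0.47 under wild-type Set-β, and the 33 without had -0.65 under myr-Set-β and -0.52 under wild-type Set-β. With GGGCGG they were -0.57 under myr-Set-β and -0.50 under wild-type Set-β, and without it -0.65 under myr-Set-β and -0.64 under wild-type Set-β. These medians describe the arrays and were not tested.

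Start codon scanning is done by the small factors eIF1 and eIF1A. All 4 measured genes of this group had lower means under both forms of Set-β, with medians of -0.53 under myr-Set-β, -0.11 without its replicate 1, and -0.40 under wild-type Set-β. Eif1ad, which encodes a relative of eIF1A, measured 7.45, 7.55 and 7.95 on the myr-Set-β arrays, 7.41, 7.53 and 7.51 on the wild-type Set-β arrays, and 7.81, 7.62 and 7.91 on the mCherry arrays. The wild-type Set-β arrays were all below the mCherry arrays, with a difference of -0.30 ± 0.18, while the myr-Set-β arrays overlapped them, at -0.13 ± 0.18 (-0.03 without replicate 1). Eif1b, whose E-box is printed above, had differences of -0.73 ± 0.40 (-0.35 without replicate 1) under myr-Set-β and -0.64 ± 0.40 under wild-type Set-β, with overlapping arrays in both. Eif1a and Eif1ax, which encode eIF1A, had differences of -0.46 ± 0.32 (-0.14 without replicate 1) and -0.60 ± 0.43 (-0.09 without replicate 1) under myr-Set-β, and of -0.33 ± 0.32 and -0.47 ± 0.43 under wild-type Set-β.

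eIF2 carries the initiator methionyl-tRNA to the small subunit. Its alpha subunit Eif2s1, the target of the stress kinases, measured 7.97, 8.75 and 9.44 on the myr-Set-β arrays, 8.49, 8.65 and 8.79 on the wild-type Set-β arrays, and 9.26, 9.30 and 9.59 on the mCherry arrays. All 3 wild-type Set-β arrays lay below all mCherry arrays, whereas replicate 3 of myr-Set-β reached the mCherry values. The difference was -0.66 ± 0.33 under myr-Set-β, -0.29 without its replicate 1, and -0.74 ± 0.33 under wild-type Set-β. The beta subunit Eif2s2 was likewise apart under wild-type Set-β alone, with differences of -0.85 ± 0.44 (-0.27 without replicate 1) under myr-Set-β and -0.67 ± 0.44 under wild-type Set-β.

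Eif2a encodes a separate protein that can also deliver initiator tRNA, and it measured 7.09, 7.61 and 8.82 on the myr-Set-β arrays, 7.73, 7.87 and 7.87 on the wild-type Set-β arrays, and 8.48, 7.79 and 8.78 on the mCherry arrays. The groups overlapped, because mCherry replicate 2 lay within the wild-type Set-β range. The difference was -0.51 ± 0.42 under myr-Set-β, -0.14 without its replicate 1, and -0.53 ± 0.42 under wild-type Set-β. Without mCherry replicate 3 these were -0.30 under myr-Set-β and -0.31 under wild-type Set-β, and without mCherry replicate 2 they were -0.79 under myr-Set-β and -0.81 under wild-type Set-β. Eif2d, which acts on ribosomes in reinitiation and recycling, stood near zero, at 0.01 ± 0.20 (0.12 without replicate 1) under myr-Set-β and -0.05 ± 0.20 under wild-type Set-β.

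eIF2B is the exchange factor that reloads eIF2 with GTP, the step that phosphorylated eIF2 alpha blocks. Eif2b2, its beta subunit, had the smallest unadjusted p of the members for wild-type Set-β against mCherry. It measured 7.17, 7.75 and 8.01 on the myr-Set-β arrays, 7.29, 7.42 and 7.61 on the wild-type Set-β arrays, and 8.24, 7.83 and 8.64 on the mCherry arrays. Every wild-type Set-β array was below every mCherry array, with a difference of -0.80 ± 0.27 (unadjusted p = 0.0169, limma adjusted p = 0.447), which is an intensity ratio of 0.574. The myr-Set-β arrays overlapped mCherry, at -0.60 ± 0.27, or -0.36 without replicate 1 and -0.39 without mCherry replicate 3. Eif2b5, the catalytic epsilon subunit, varied little over the arrays, which read 7.31, 7.43 and 7.76 on the myr-Set-β arrays, 7.39, 7.31 and 7.48 on the wild-type Set-β arrays, and 7.68, 7.45 and 7.73 on the mCherry arrays. All 3 groups overlapped, with -0.12 ± 0.17 (-0.03 without replicate 1) under myr-Set-β and -0.23 ± 0.17 under wild-type Set-β, and after quantile normalization the myr-Set-β difference was 0.01. The alpha subunit Eif2b1 had differences of -0.29 ± 0.18 (-0.26 without replicate 1) under myr-Set-β and -0.27 ± 0.18 under wild-type Set-β. For the delta subunit Eif2b4, apart and lower under wild-type Set-β, they were -0.45 ± 0.24 (-0.38 without replicate 1) under myr-Set-β and -0.49 ± 0.24 under wild-type Set-β.

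Kinases that phosphorylate eIF2 alpha answer different stresses. Eif2ak1, the kinase controlled by heme, measured 6.63, 6.77 and 7.34 on the myr-Set-β arrays, 6.81, 6.97 and 6.77 on the wild-type Set-β arrays, and 7.05, 6.83 and 7.69 on the mCherry arrays. The highest array was mCherry replicate 3, and the groups overlapped. Eif2ak3, the kinase known as PERK that senses unfolded protein in the endoplasmic reticulum, measured 7.69, 7.80 and 7.99 on the myr-Set-β arrays, 8.06, 7.71 and 7.67 on the wild-type Set-β arrays, and 8.50, 7.97 and 7.88 on the mCherry arrays. Here mCherry replicate 1 was the highest array, and the difference under wild-type Set-β, -0.30 ± 0.21, was -0.11 without it. Under myr-Set-β the difference of Eif2ak3 was -0.29 ± 0.21 (-0.22 without replicate 1), or -0.10 without mCherry replicate 1. That of Eif2ak1 was -0.28 ± 0.27 (-0.13 without replicate 1), or -0.03 without mCherry replicate 3. For Eif2ak1 the wild-type Set-β difference was -0.34 ± 0.27, and -0.09 without mCherry replicate 3. Eif2ak4, which senses uncharged tRNA, lay below the level filter at 6.17, 6.45 and 6.78 on the myr-Set-β arrays, 6.60, 6.62 and 6.60 on the wild-type Set-β arrays, and 7.09, 6.67 and 6.78 on the mCherry arrays.

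eIF3 is the largest initiation factor, a complex that holds the small subunit and recruits the messenger RNA. All 11 measured subunits had lower means under both forms of Set-β. The median was -0.74 under myr-Set-β, with 1 of 11 apart and lower than mCherry (9.09%, against 6.85% of all tested clusters), and -0.67 under wild-type Set-β, with 9 of 11 (81.8%, against 26.4%). Their mean levels ran from 7.46 to 10.07, and bright clusters in general were lower. Above the 75th percentile of mean level the shares of all clusters were 7.23% under myr-Set-β and 35.3% under wild-type Set-β. Without myr-Set-β replicate 1 all 11 remained lower, with a median of -0.25. The core subunit Eif3a measured 7.79, 9.48 and 10.26 on the myr-Set-β arrays, 9.42, 9.30 and 9.23 on the wild-type Set-β arrays, and 10.16, 9.76 and 10.35 on the mCherry arrays. Replicate 1 of myr-Set-β was far below every other array, and replicate 3 lay among the mCherry arrays. The difference was -0.91 ± 0.52 under myr-Set-β, -0.22 without replicate 1, and -0.78 ± 0.52 under wild-type Set-β, where no array overlapped mCherry. The pooled SE hides unequal SDs, which were 1.26 under myr-Set-β, 0.10 under wild-type Set-β and 0.30 under mCherry.

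Eif3j, a loosely bound subunit that contacts the decoding centre of the small subunit, had the widest range of all members over the 9 arrays, 2.68 log2 units. It measured 7.53, 9.09 and 9.91 on the myr-Set-β arrays, 9.51, 9.41 and 9.09 on the wild-type Set-β arrays, and 9.90, 9.47 and 10.20 on the mCherry arrays. Replicate 1 of myr-Set-β alone was low, and the 3 groups otherwise overlapped. Its difference was -1.02 ± 0.52 under myr-Set-β, -0.36 without replicate 1, and -0.52 ± 0.52 under wild-type Set-β.

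Eif3k, a subunit at the edge of the complex, was 1 of the 3 members apart from mCherry under myr-Set-β. It measured 8.52, 10.09 and 10.11 on the myr-Set-β arrays, 9.66, 9.57 and 9.65 on the wild-type Set-β arrays, and 10.33, 10.12 and 10.48 on the mCherry arrays. The highest myr-Set-β arrays lay just below the lowest mCherry array, and the difference was -0.74 ± 0.39, or -0.21 without replicate 1. Under wild-type Set-β the arrays were close together and all lower than mCherry, with a difference of -0.69 ± 0.39. The core subunits Eif3b and Eif3c had differences of -0.72 ± 0.36 (-0.36 without replicate 1) and -0.67 ± 0.36 (-0.23 without replicate 1) under myr-Set-β and of -0.62 ± 0.36 and -0.66 ± 0.36 under wild-type Set-β. Eif3d, which can itself bind a cap, had differences of -0.72 ± 0.43 (-0.25 without replicate 1) under myr-Set-β and -0.84 ± 0.43 under wild-type Set-β. Over Eif3f, Eif3h, Eif3i, Eif3l and Eif3m the differences lay between -0.85 and -0.40 under myr-Set-β, between -0.36 and -0.06 without its replicate 1, and between -0.73 and -0.47 under wild-type Set-β.

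eIF4F is the cap-binding complex of eIF4E, the scaffold eIF4G and the helicase eIF4A. The median over the 11 genes of this group was -0.65 under myr-Set-β, -0.20 without its replicate 1, and -0.51 under wild-type Set-β. Eif4e measured 7.93, 8.78 and 9.37 on the myr-Set-β arrays, 8.87, 8.35 and 8.42 on the wild-type Set-β arrays, and 9.51, 9.17 and 9.36 on the mCherry arrays. The wild-type Set-β arrays were all below the mCherry arrays, with a difference of -0.80 ± 0.34 (unadjusted p = 0.0424, limma adjusted p = 0.447), an intensity ratio of 0.575. Under myr-Set-β the arrays overlapped mCherry at replicate 3, and the difference was -0.65 ± 0.34, or -0.27 without replicate 1. Eif4e2 encodes a cap-binding relative that represses translation, and it measured 8.05, 8.86 and 9.58 on the myr-Set-β arrays, 8.41, 8.72 and 8.38 on the wild-type Set-β arrays, and 9.52, 8.93 and 9.81 on the mCherry arrays. Again all wild-type Set-β arrays lay below all mCherry arrays, with a difference of -0.91 ± 0.38 (unadjusted p = 0.0387, limma adjusted p = 0.447). The myr-Set-β arrays overlapped both other groups, with a difference from mCherry of -0.59 ± 0.38, or -0.20 without replicate 1 and -0.97 without replicate 3.

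Both helicase genes were lower on every wild-type Set-β array than on any mCherry array. Eif4a1, the general helicase, measured 9.02, 10.39 and 11.17 on the myr-Set-β arrays, 9.87, 10.26 and 10.48 on the wild-type Set-β arrays, and 10.52, 10.67 and 11.22 on the mCherry arrays. Its difference was -0.61 ± 0.48 under myr-Set-β, -0.02 without replicate 1, and -0.60 ± 0.48 under wild-type Set-β. Without mCherry replicate 3 these were -0.40 under myr-Set-β and -0.39 under wild-type Set-β. Eif4a2, the paralogue enriched in brain, measured 8.89, 10.16 and 10.76 on the myr-Set-β arrays, 9.88, 9.40 and 10.02 on the wild-type Set-β arrays, and 10.81, 10.49 and 10.78 on the mCherry arrays. It had the lowest difference of the 56 members under wild-type Set-β, -0.92 ± 0.42, and -0.76 ± 0.42 under myr-Set-β, or -0.23 without replicate 1. The helicase cofactor Eif4h had differences of -0.66 ± 0.40 (-0.12 without replicate 1) under myr-Set-β and -0.38 ± 0.40 under wild-type Set-β. Eif4b, the other cofactor, reached 10.76 on wild-type Set-β replicate 3, above every mCherry array, against 8.97 and 9.23 on the other wild-type arrays, and its differences were -0.86 ± 0.48 (-0.61 without replicate 1) under myr-Set-β and -0.48 ± 0.48 under wild-type Set-β.

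The scaffold gene Eif4g1 was read by 3 clusters, with differences of -0.64, -0.60 and -0.67 under myr-Set-β and of -0.46, -0.39 and -0.43 under wild-type Set-β. Its brightest cluster measured 7.71, 9.25 and 9.97 on the myr-Set-β arrays, 8.97, 9.32 and 9.35 on the wild-type Set-β arrays, and 9.72, 9.34 and 9.88 on the mCherry arrays. Replicate 1 of myr-Set-β was far below all other arrays, and without it the myr-Set-β difference was -0.04. In this cluster wild-type Set-β replicate 3, at 9.35, just overlapped mCherry replicate 2, at 9.34. In each of the other clusters all wild-type Set-β arrays lay below all mCherry arrays. Their highest wild-type values were 9.14 and 9.23, against a lowest mCherry value of 9.27 in each. Eif4g2, an eIF4G relative that lacks the eIF4E site, measured 9.84, 10.78 and 11.41 on the myr-Set-β arrays, 10.98, 10.75 and 10.71 on the wild-type Set-β arrays, and 11.38, 11.25 and 11.35 on the mCherry arrays. All wild-type Set-β arrays lay below mCherry, with a difference of -0.51 ± 0.34, and the myr-Set-β difference was -0.65 ± 0.34, or -0.23 without replicate 1.

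Eif4g3, a second full scaffold, reached an unadjusted p under 0.05 in both comparisons with mCherry. It measured 7.26, 8.06 and 8.32 on the myr-Set-β arrays, 7.94, 7.90 and 7.84 on the wild-type Set-β arrays, and 8.96, 8.21 and 8.59 on the mCherry arrays. The wild-type Set-β arrays lay close together and below all mCherry arrays, with a difference of -0.69 ± 0.29 (unadjusted p = 0.0419, limma adjusted p = 0.447). Under myr-Set-β replicate 3 overlapped mCherry, and the difference was -0.71 ± 0.29 (unadjusted p = 0.0381, limma adjusted p = 0.447), or -0.40 without replicate 1. The 2 other eIF4E relatives of this group lay below the level filter. Eif4e1b, known from the germ line, was the only member whose wild-type Set-β arrays were all above mCherry, at 6.56, 6.49 and 6.02 on the myr-Set-β arrays, 6.52, 6.63 and 6.38 on the wild-type Set-β arrays, and 6.25, 6.21 and 6.28 on the mCherry arrays, values just under the array median. Eif4e3 overlapped in all groups.

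Proteins that hold eIF4E keep it from the scaffold. Their 4 genes had medians of -0.24 under myr-Set-β, -0.03 without its replicate 1, and -0.33 under wild-type Set-β. Eif4ebp1, the classical mTOR-controlled eIF4E-binding protein, measured 9.03, 9.31 and 9.75 on the myr-Set-β arrays, 9.28, 9.24 and 9.26 on the wild-type Set-β arrays, and 9.18, 9.44 and 9.71 on the mCherry arrays. All groups overlapped, with -0.08 ± 0.22 under myr-Set-β and -0.18 ± 0.22 under wild-type Set-β. Both signs turned after quantile normalization, to 0.25 under myr-Set-β and 0.18 under wild-type Set-β, and the myr-Set-β difference was 0.09 without replicate 1. Eif4ebp2, the form prevalent in brain, measured 8.03, 8.62 and 8.78 on the myr-Set-β arrays, 8.42, 8.98 and 8.41 on the wild-type Set-β arrays, and 9.03, 9.05 and 9.05 on the mCherry arrays. The mCherry arrays were nearly equal, and all myr-Set-β and all wild-type Set-β arrays were below them, with differences of -0.57 ± 0.24 under myr-Set-β (unadjusted p = 0.0432, limma adjusted p = 0.447) and of -0.44 ± 0.24 under wild-type Set-β. Without its replicate 1 the myr-Set-β difference was -0.34.

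Eif4ebp3, the third binding protein, measured 6.73, 7.05 and 7.64 on the myr-Set-β arrays, 6.66, 7.05 and 6.66 on the wild-type Set-β arrays, and 7.78, 7.50 and 7.22 on the mCherry arrays. It was apart and lower under wild-type Set-β, with a difference of -0.71 ± 0.26 (unadjusted p = 0.0249, limma adjusted p = 0.447), while the myr-Set-β arrays overlapped both other groups, with a difference from mCherry of -0.36 ± 0.26. That value was -0.16 without myr-Set-β replicate 1, -0.61 without its replicate 3 and -0.22 without mCherry replicate 1. Eif4enif1, whose protein carries eIF4E into the nucleus and into processing bodies, overlapped throughout, with -0.13 ± 0.26 (0.11 without replicate 1) under myr-Set-β and -0.23 ± 0.26 under wild-type Set-β.

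**Figure D4:**
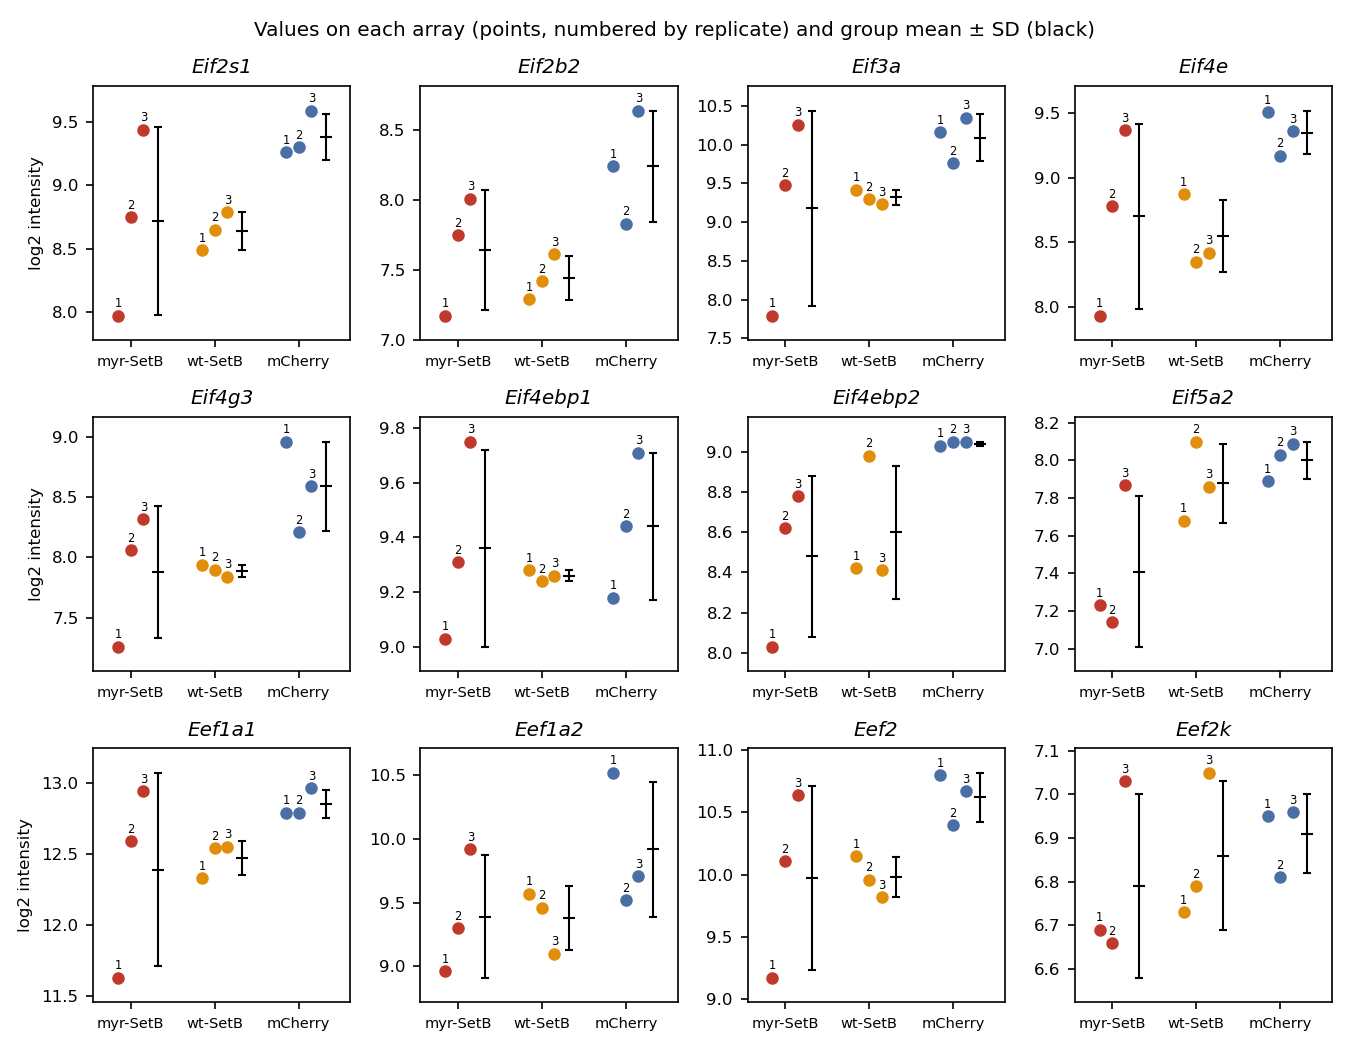
Log2 intensity of 12 named translation factors on every array, as points numbered by replicate, with the mean ± SD of each group of 3 in black. For Eif4e the wild-type Set-β points lie below all mCherry points, while the myr-Set-β points reach into the range of mCherry and below that of wild-type Set-β.

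Eif5b is the GTPase that joins the large ribosomal subunit, and it measured 7.43, 8.60 and 9.12 on the myr-Set-β arrays, 8.58, 8.50 and 8.49 on the wild-type Set-β arrays, and 9.26, 8.84 and 9.58 on the mCherry arrays. The wild-type Set-β arrays lay close together and below all mCherry arrays, with a difference of -0.70 ± 0.39. Under myr-Set-β the difference was -0.84 ± 0.39, or -0.36 without replicate 1, and replicate 3 overlapped mCherry. Eif5a encodes the factor that carries the modified residue hypusine and helps the ribosome over difficult peptide bonds. Its arrays read 8.05, 8.78 and 9.22 on the myr-Set-β arrays, 8.57, 8.77 and 8.61 on the wild-type Set-β arrays, and 9.08, 8.87 and 9.46 on the mCherry arrays. Wild-type Set-β was apart and lower, with a difference of -0.49 ± 0.29, or -0.32 without mCherry replicate 3, and myr-Set-β overlapped, at -0.45 ± 0.29, or -0.14 without its replicate 1 and -0.29 without mCherry replicate 3.

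Its paralogue Eif5a2 had another order. It measured 7.23, 7.14 and 7.87 on the myr-Set-β arrays, 7.68, 8.10 and 7.86 on the wild-type Set-β arrays, and 7.89, 8.03 and 8.09 on the mCherry arrays. All myr-Set-β arrays lay below all mCherry arrays, with a difference of -0.59 ± 0.22 (unadjusted p = 0.0277, limma adjusted p = 0.447), the smallest unadjusted p of the members in that comparison. Under wild-type Set-β the arrays overlapped mCherry, at -0.12 ± 0.22, a difference that was 0.11 after quantile normalization. In the direct comparison of both forms, myr-Set-β was lower, with a difference of -0.46 ± 0.22 (unadjusted p = 0.0679, limma adjusted p = 1), and the arrays overlapped at myr-Set-β replicate 3. Without myr-Set-β replicate 1, the Eif5a2 difference was -0.50 from mCherry and -0.37 from wild-type Set-β.

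Elongation begins with eEF1A, which brings aminoacyl-tRNA to the ribosome. The 6 genes of this group had medians of -0.44 under myr-Set-β, -0.15 without its replicate 1, and -0.42 under wild-type Set-β. After quantile normalization the medians were -0.21 under myr-Set-β and -0.17 under wild-type Set-β. After cyclic loess, another normalization, the median was -0.01 under myr-Set-β, with 3 of 6 lower. Under wild-type Set-β it was then -0.15, with all 6 lower. Eef1a1, the form made in most cells, measured 11.63, 12.59 and 12.94 on the myr-Set-β arrays, 12.33, 12.54 and 12.55 on the wild-type Set-β arrays, and 12.79, 12.79 and 12.96 on the mCherry arrays. All wild-type Set-β arrays were below mCherry, with a difference of -0.38 ± 0.30, and the myr-Set-β difference was -0.46 ± 0.30, or -0.08 without replicate 1. Its near-identical copy Eef1a1l1 had differences of -0.80 ± 0.36 (-0.35 without replicate 1) under myr-Set-β and -0.63 ± 0.36 under wild-type Set-β, and signal of the pair can mix on such probes. Eef1a2, the form that takes over in mature neurons and muscle, measured 8.96, 9.30 and 9.92 on the myr-Set-β arrays, 9.57, 9.46 and 9.10 on the wild-type Set-β arrays, and 10.52, 9.52 and 9.71 on the mCherry arrays. It overlapped in every comparison, with -0.53 ± 0.32 (-0.31 without replicate 1) under myr-Set-β and -0.54 ± 0.32 under wild-type Set-β. Without mCherry replicate 1 these were -0.22 under myr-Set-β and -0.24 under wild-type Set-β.

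The remaining genes of this group include the exchange complex that reloads eEF1A. Eef1d, its delta subunit, measured 7.60, 8.15 and 8.49 on the myr-Set-β arrays, 7.86, 8.27 and 7.86 on the wild-type Set-β arrays, and 8.06, 8.23 and 8.73 on the mCherry arrays. All groups overlapped, with -0.26 ± 0.27 under myr-Set-β, -0.02 without replicate 1, and -0.34 ± 0.27 under wild-type Set-β. Without mCherry replicate 3 these were -0.06 under myr-Set-β and -0.15 under wild-type Set-β. The gamma subunit Eef1g was apart and lower under wild-type Set-β, with a difference of -0.50 ± 0.22, and overlapped under myr-Set-β, at -0.42 ± 0.22 (-0.19 without replicate 1). Eef1b2, whose pyrimidine run is printed above, had differences of -0.56 ± 0.41 (-0.11 without replicate 1) under myr-Set-β and -0.42 ± 0.41 under wild-type Set-β, with overlap in both. Eef1e1 encodes a protein of the aminoacyl-tRNA synthetase complex and had differences of -0.30 ± 0.24 (-0.24 without replicate 1) under myr-Set-β and -0.41 ± 0.24 under wild-type Set-β.

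Translocation of the ribosome is driven by eEF2. Eef2 measured 9.17, 10.11 and 10.64 on the myr-Set-β arrays, 10.15, 9.96 and 9.82 on the wild-type Set-β arrays, and 10.80, 10.40 and 10.67 on the mCherry arrays. Wild-type Set-β was apart and lower, with a difference of -0.64 ± 0.33. The myr-Set-β arrays overlapped mCherry at replicate 3, with a difference of -0.65 ± 0.33, or -0.25 without replicate 1. Its kinase Eef2k, which switches eEF2 off, had the narrowest range of all members over the 9 arrays, 0.39 log2 units. It measured 6.69, 6.66 and 7.03 on the myr-Set-β arrays, 6.73, 6.79 and 7.05 on the wild-type Set-β arrays, and 6.95, 6.81 and 6.96 on the mCherry arrays. The groups overlapped, with -0.11 ± 0.17 (-0.06 without replicate 1) under myr-Set-β and -0.05 ± 0.17 under wild-type Set-β.

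The methyltransferases modify the elongation factors after they are made. Eef1akmt1, which methylates a lysine of eEF1A, measured 6.61, 6.82 and 7.07 on the myr-Set-β arrays, 6.84, 6.75 and 6.65 on the wild-type Set-β arrays, and 8.24, 7.02 and 7.51 on the mCherry arrays. Each wild-type Set-β array was below mCherry, with a difference of -0.84 ± 0.29 (unadjusted p = 0.0173, limma adjusted p = 0.447). The myr-Set-β difference was -0.76 ± 0.29 (unadjusted p = 0.0282, limma adjusted p = 0.447), or -0.65 without its replicate 1 and -0.43 without mCherry replicate 1, with replicate 3 overlapping mCherry replicate 2. The mCherry arrays themselves were spread widely (SD 0.61, n = 3), and without mCherry replicate 1 the wild-type Set-β difference was -0.52. Eef1akmt2, another eEF1A methyltransferase, had differences of -0.19 ± 0.24 (-0.01 without replicate 1) under myr-Set-β and -0.34 ± 0.24 under wild-type Set-β. Eef2kmt, which methylates eEF2, was the one tested member with a higher mean under wild-type Set-β than under mCherry, at 0.10 ± 0.18, and it stood at 0.16 ± 0.18 (0.00 without replicate 1) under myr-Set-β. Its arrays overlapped in both comparisons.

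Between both forms of Set-β the members lay on both sides of zero. Of the 56 members 30 were lower and 26 higher under myr-Set-β than under wild-type Set-β, with a median of -0.01. Over all tested clusters the median was 0.01 and 48.5% were lower. At an unadjusted p under 0.05 there were 0 members lower and 0 higher, and over all clusters 0.567% were lower and 0.567% higher. No member was apart and lower, against 1.76% of clusters. The 4 smallest unadjusted p belonged to Eif5a2, Eif4ebp3, Eif3j and Eif1ad, with differences of -0.46 ± 0.22, 0.35 ± 0.26, -0.50 ± 0.52 and 0.17 ± 0.18. The median moved with the arrays included: without myr-Set-β replicate 1 5 members were lower and the median was 0.31, and without myr-Set-β replicate 3 there were 50 lower and the median was -0.28.

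Other genes of translation and its control, taken from a list of 40 that holds the mTOR pathway, termination factors and the eIF2 stress response, are given as counts. Of 34 measured, 33 had a lower mean under myr-Set-β than under mCherry, with a median of -0.44, and 31 under wild-type Set-β, with a median of -0.46. Of all tested clusters, 63.9% were lower under myr-Set-β and 65.5% under wild-type Set-β. None of the 34 genes passed the adjusted threshold in any comparison. At an unadjusted p under 0.05, 3 of 32 tested were lower under myr-Set-β, against 6.92% of all clusters, and 4 of 32 under wild-type Set-β, against 7.13%. Between both forms 17 were lower and 17 higher.

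The genes named here were chosen after their values were seen. Ddit3, the transcription factor CHOP that is made when eIF2 alpha stays phosphorylated, measured 8.23, 8.74 and 9.38 on the myr-Set-β arrays, 9.05, 9.07 and 8.68 on the wild-type Set-β arrays, and 10.02, 9.60 and 9.60 on the mCherry arrays. Both forms of Set-β lay wholly below mCherry, with differences of -0.96 ± 0.29 under myr-Set-β and -0.81 ± 0.29 under wild-type Set-β (limma adjusted p = 0.447 for each), and the myr-Set-β difference was -0.68 without replicate 1. Trib3, an inhibitor induced by the same response, measured 6.50, 6.92 and 7.32 on the myr-Set-β arrays, 6.73, 6.91 and 7.21 on the wild-type Set-β arrays, and 8.03, 7.37 and 7.46 on the mCherry arrays. Its groups did not overlap mCherry either, with -0.71 ± 0.27 under myr-Set-β, -0.50 without replicate 1, and -0.67 ± 0.27 under wild-type Set-β. Atf4, the regulator upstream of both, measured 10.39, 11.22 and 11.44 on the myr-Set-β arrays, 11.13, 11.23 and 11.25 on the wild-type Set-β arrays, and 11.72, 11.68 and 11.74 on the mCherry arrays. It was lower on all arrays of either form, with differences of -0.70 ± 0.26 under myr-Set-β, -0.38 without replicate 1, and -0.51 ± 0.26 under wild-type Set-β. Pdcd4, an inhibitor of the eIF4A helicase, and Ppp1r15a, the phosphatase subunit that restores eIF2, reached an unadjusted p under 0.05 under wild-type Set-β, with differences of -0.90 ± 0.31 and -0.51 ± 0.17 there. Under myr-Set-β the differences were -0.57 ± 0.31 for Pdcd4, or -0.39 without replicate 1, and -0.35 ± 0.17 for Ppp1r15a, or -0.26 without it. Asns and Chac1, of the same stress response, each overlapped mCherry in 1 comparison. Asns, an asparagine synthetase, had differences of -0.56 ± 0.31 (-0.24 without replicate 1) under myr-Set-β, with overlap, and -0.53 ± 0.31 under wild-type Set-β, without overlap. Chac1, a glutathione-degrading enzyme, had -0.48 ± 0.27 (-0.37 without replicate 1) under myr-Set-β, without overlap, and -0.09 ± 0.27 under wild-type Set-β, with overlap.

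**Figure D5:**
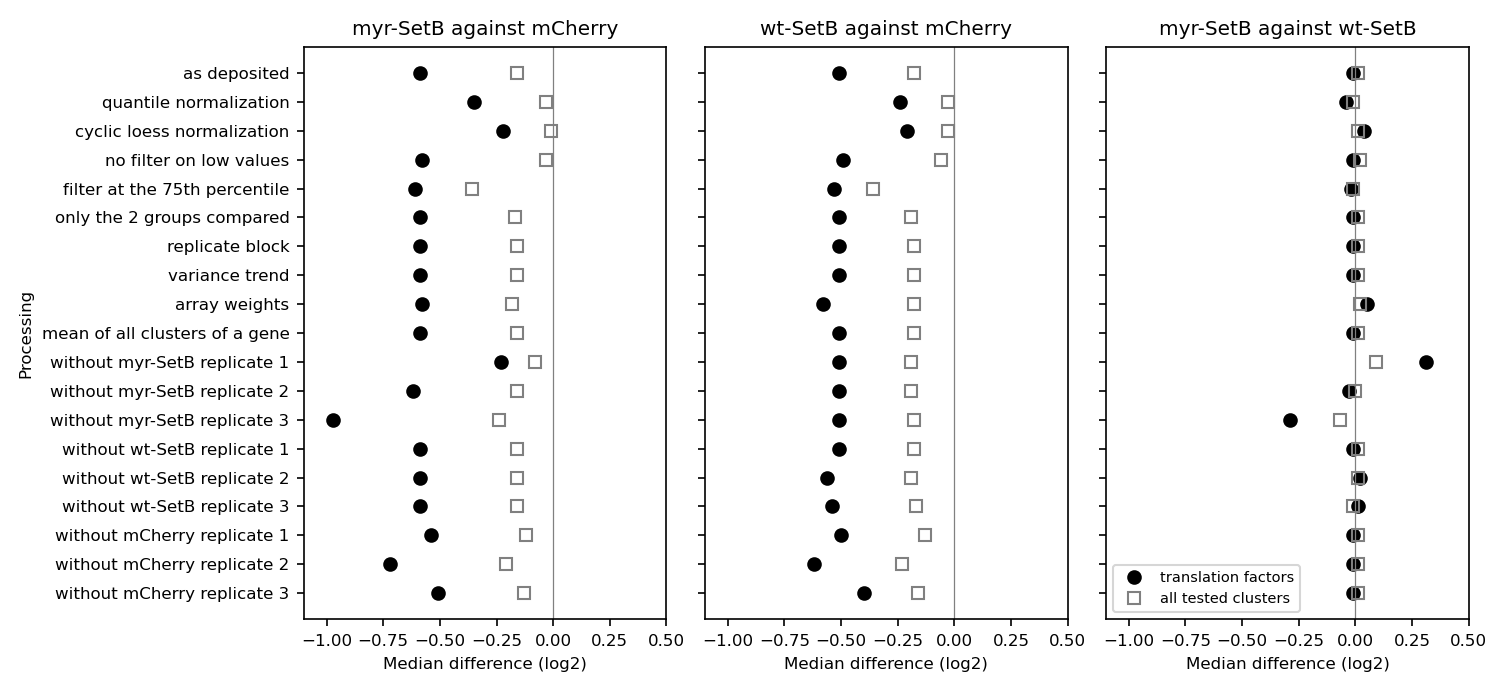
Median log2 difference of the translation factors that passed the level filter (filled circles) and of all tested clusters (open squares) under each processing (rows), for myr-Set-β against mCherry, wild-type Set-β against mCherry, and myr-Set-β against wild-type Set-β (panels from left to right). The members' median stays below that of all clusters in every row of the first 2 panels; in the third it lies near zero except without myr-Set-β replicate 1 or 3.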

How the data were processed

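RNA was amplified before labelling and measured on Affymetrix Rat Gene arrays, per the labels' protocols and the series' design text. RMA in Expression Console summarised the probes, per the submitters' processing notes, which give no version of either. The deposited values are linear intensities, which the authors scaled to the median of each sample, 100 on all 9 arrays. This fixes the middle of an array but not its spread. Arrays carry no read depth, so their number limits the precision. The array annotation gave 18511 clusters 1 symbol, 575 several and 17599 none. All 56 member genes matched the RefSeq gene table of GRCr8.

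The values were log2-transformed and fitted as group means over all 9 arrays with limma 3.58.1 in R 4.3.3, two-sided, with Benjamini-Hochberg adjustment over the 18343 clusters at or above the median cluster mean (6.65) and a threshold of 0.05. The fit was tested on simulated data. Alternatives were other normalizations, level filters, variance models, a replicate block, only the 2 groups compared, the mean of a gene's clusters, and each array left out. Counts of members lower, and of members apart and lower, were added to the alternatives after seeing the data. Values on every array are given for a list of regulators and core factors. They are also given for the 4 members with the smallest unadjusted p in each comparison. Those of Eif3k, Eif2ak4, Eif4e1b, Ddit3, Trib3 and Atf4 were added after they had been seen. So were the differences of Pdcd4, Ppp1r15a, Asns and Chac1. The members, the role groups, the marker lists and the list of other translation genes were chosen with earlier results of these data known. Motifs were searched on both strands, except the pyrimidine run, which was read on the strand of the gene.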

Additional observations from a re-analysis of the deposited data

How the results depend on the processing

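No member passed the adjusted threshold under the settings run, except with array weights, which called 34 of the 53 tested members for myr-Set-β against mCherry, 1 for myr-Set-β against wild-type Set-β (Eif5a2, -0.80) and none for wild-type Set-β against mCherry. That fit gave myr-Set-β replicate 2 a weight of 165, against 0.151 for replicate 1 and 0.179 for replicate 3, and its estimation stopped before convergence. With single arrays left out, the median over the tested members ranged from -0.97 to -0.23 for myr-Set-β against mCherry, from -0.62 to -0.40 for wild-type Set-β against mCherry, and from -0.29 to 0.31 between both forms. Members past an unadjusted p of 0.05 for myr-Set-β against mCherry, 4 as reported, were 1 after quantile normalization, 2 after cyclic loess, 2 with the filter at the 75th percentile, 1 with only the 2 groups, 9 with a replicate block, 43 with array weights, and 0 to 40 with single arrays left out. For wild-type Set-β against mCherry, 6 as reported, they were 3 after quantile normalization, 29 with only the 2 groups, 37 with array weights, 6 with the replicate block, and 2 to 26 with single arrays left out. The 26 came without myr-Set-β replicate 1, which enters this comparison only through the shared estimate of spread. With only the 2 groups, the smallest limma adjusted p of a member was 0.171. For myr-Set-β against wild-type Set-β, 0 as reported, they were 1 after quantile normalization, 1 after cyclic loess, 8 with array weights and 0 to 3 with single arrays left out. The shares of all clusters past an unadjusted p of 0.05 under these settings are not given here. Without those shares the counts cannot be told from a shift of all clusters, so they are not read as a result about the members. Members apart and lower, of 53, were 19 after cyclic loess for wild-type Set-β against mCherry, where 12.1% of all clusters were, and 32 to 44 with single arrays left out, against 29.2% to 40.4% of clusters. For myr-Set-β against mCherry they were 3 to 47, against 8.54% to 37.5%. Between both forms they were 1 after quantile normalization (2.56% of clusters), 1 after cyclic loess (2.23%) and 0 to 7 with single arrays left out (3.69% to 10.3%), and the members lower ranged from 5 to 50.

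Some differences from mCherry turned sign. The listed regulators and core factors, and the members of smallest unadjusted p against mCherry, were followed under the settings. Among these, the ones that turned under myr-Set-β were Eef1d, Eif2b5 and Eif4ebp1. Eef1d was at 0.03 after cyclic loess, and Eif2b5 at 0.01 after quantile normalization and 0.02 after cyclic loess. Eif4ebp1 was at 0.25 and 0.38 after those steps and at -0.27 to 0.09 with single arrays left out. Under wild-type Set-β they were Eif4ebp1 at 0.18 and 0.19, Eif5a2 at 0.11 and 0.09, and Eef2k at -0.14 to 0.01 with single arrays left out. Other members turned too, some from further off zero. After cyclic loess, Eif3i went from -0.40 to 0.06 and Eef1g from -0.42 to 0.03 under myr-Set-β. Eif1a went from -0.33 to 0.02 under wild-type Set-β. Of all 56 members, 44 were lower under myr-Set-β after cyclic loess, against 52 as deposited. Under wild-type Set-β there were 49, against 54. For Eif3j, myr-Set-β minus wild-type Set-β ranged from -1.03 to 0.16 with single arrays left out. The cause of these shifts was not tested. Replicate numbers are shared by all groups, but the deviations of same-numbered arrays correlated between -0.07 and 0.38, and not all passed 0.1, so the numbers were not taken as pairs. Those of replicate 3 did pass it, at 0.13 to 0.27, and Vim was low on replicate 1 of every group, so some traits went with the number. Precision is limited by 3 arrays a group, and dim genes such as Eif4e1b and Eif2ak4 lie near the middle of the array.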
